A study of Ovis aries with 3 samples.

Results

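The genes of the sarcomere, the contractile unit of heart and skeletal muscle, were described in single cells of whole sheep embryos. Members were all genes whose symbol begins with TNNC, TNNI, TNNT, MYL, MYH, ACTN, TPM, MYBP, MYOZ or LMOD followed by a number or letter code, together with *MYLPF*, *ACTC1*, *ACTA1* and *KLHL41*. They were 56 of the 26478 genes counted, and the choice rested on names, not on measured values. *TTN*, which encodes titin and is also named by the rule, was not analysed here. By role, the 56 comprised 9 muscle myosin heavy chains, 7 muscle myosin light chains, 5 myosin-binding proteins, 7 troponins, 3 tropomyosins, 4 actins and leiomodins, and 6 Z-disc or assembly genes. Another 10 were relatives that serve non-muscle or smooth muscle cells, and 5 matched by their letters only. Of the 56, 43 reached 50 unique molecular identifiers (UMIs, each standing for 1 captured RNA molecule) in at least 1 library.

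In the sarcomere, thick filaments of myosin pull on thin filaments of actin, and the thin filaments are anchored at the Z-disc. A myosin molecule carries heavy chains, which hold the motor, and light chains, which stiffen and regulate its neck. Calcium binding to troponin C moves tropomyosin along the actin filament through troponins I and T, so that myosin can attach. Heart and skeletal muscle use different genes for most of these parts, and the early embryo often uses both sets before each tissue settles on its own. The heart is among the first organs to form and contracts while skeletal muscle precursors are still dividing in the somites.

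Whole embryos were taken at E16 and E19, that is 16 and 19 days after insemination, dissociated with collagenase, freed of red blood cells by lysis and profiled by droplet single-cell RNA sequencing. Hulunbuir short-tailed sheep (HSTS), which carry a missense change in both copies of the *T* gene, gave the E19 HSTS library, and Hu sheep (HS), without that change, gave the E19 HS and E16 HS libraries. Each condition was thus 1 library, breed was compared at E19 only, and stage was compared in HS only. Counts of RNA do not show a missense change, so the level of *T* cannot check the labels, and the sources do not settle whether the E16 HS library held 1 embryo or a pool.

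With 1 library per condition there is no replicate check, and no test between conditions was made. Levels are sums of UMIs over the named cells per 1000000 UMIs of the same cells (CPM), and ratios of CPM carry exact 95% intervals that cover counting error only. A gene was counted as higher or lower when its ratio passed 2-fold, among genes with at least 50 UMIs in both sums together. A cell was kept if it had 200 to 6000 genes, between 1000 and 30000 UMIs, and no more than 10% of them mitochondrial. This left 11329 cells in E16 HS, 10629 in E19 HS and 9618 in E19 HSTS, with 113213654, 88733467 and 99580051 UMIs and median depths of 9046, 6900 and 8675 UMIs per cell. Between pairs of libraries, 31 to 37 cell barcodes were shared, of which each of the gates described below held 0 to 2. In a sum over a whole embryo, fewer cells of a type and less RNA per cell cannot be told apart. Erythroid cells were taken as cells with at least 3 UMIs each of *AHSP* and *BLVRB*. They held 25.7%, 29% and 45.8% of the UMIs in E16 HS, E19 HS and E19 HSTS. Their part in the whole-embryo ratios is given beside only some of the results it moves.

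Muscle cells were found by sarcomere genes themselves. The cardiac gate took cells with at least 3 UMIs of *MYL7*, the atrial regulatory light chain, and at least 2 of *TNNT2*, cardiac troponin T. The skeletal gate took cells with a UMI of at least 2 of *MYF6*, a myogenic transcription factor, *MYLPF*, the fast skeletal regulatory light chain, *KLHL41*, a sarcomere assembly protein, and *TNNC2*, fast skeletal troponin C. The cardiac gate held 19 of the E16 HS cells (0.168%, exact 95% interval 0.101 to 0.262), 106 of the E19 HS cells (0.997%, 0.817 to 1.2) and 73 of the E19 HSTS cells (0.759%, 0.595 to 0.953). The skeletal gate held 14 cells (0.124%, 0.0676 to 0.207), 80 cells (0.753%, 0.597 to 0.936) and 113 cells (1.17%, 0.969 to 1.41) in the same order, which is kept below unless another is named. Both shares were thus lower at E16 than at E19. A further 1, 1 and 7 cells passed both gates, all without *MYF6* and with 37 to 297 *MYL7* UMIs, and were left out of both. As a background for these shares, 0 of 2056, 2 of 1414 and 6 of 2580 erythroid cells passed the cardiac gate (0%, with 0.179% as its exact upper bound, 0.141% and 0.233%), and 0, 5 and 5 passed the skeletal gate. Median depth in the cardiac gate was 5286, 6592 and 12406 UMIs, against 14108, 17658 and 17706 in erythroid cells.

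At E19 the cutoffs fell in the tail of the cardiac cells, with gate medians of 55 (E19 HS) and 176 (E19 HSTS) *MYL7* UMIs. In E16 HS that median was 17, so the cutoffs lay nearer the bulk of the cells. Of the cells of the cardiac gate, 2, 14 and 1 held fewer than 5 *MYL7* or fewer than 3 *TNNT2* UMIs. Another 7, 9 and 7 cells lay just outside the gate, which held 19 cells in E16 HS. Of the skeletal gate, 12, 37 and 60 cells passed with exactly 2 of the 4 genes, and 1, 27 and 29 cells held all 4. The E16 HS skeletal gate therefore rested almost wholly on pairs of low counts. The 5 gate genes that are members, *MYL7*, *TNNT2*, *MYLPF*, *KLHL41* and *TNNC2*, are described inside the gates but enter no count there, since they chose the cells.

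Markers that were not used to gate told the populations apart. In the cardiac gate, *RYR2*, the calcium release channel of heart muscle, was detected in 10 of 19, 37 of 106 and 49 of 73 cells in E16 HS, E19 HS and E19 HSTS, and the cardiac transcription factor *HAND2* in 9, 31 and 33. *NPPA*, the atrial natriuretic peptide, had no UMI in any kept cell, and *NKX2-5*, an early cardiac transcription factor, was seen in 0, 5 and 2 cells of the gate. Of the 9 cardiac markers, 6, 8 and 7 had UMIs there, but 6 also had UMIs in the erythroid cells of each library. That number thus does not set the gate apart. The list summed to 6590, 11203 and 9859 CPM in the gate, mostly *ACTC1*, against 6.39, 2.58 and 2.24 CPM in erythroid cells. In the skeletal gate it summed to 187, 2698 and 2816 CPM, all of it *ACTC1* in E16 HS and E19 HS. At E19 this sum thus parted the cardiac gate from the skeletal gate far less than from erythroid cells. The 8 skeletal myogenic markers summed to only 0, 2 and 2 UMIs in the cardiac gate. In the E19 skeletal gates the myogenic markers summed to 252 CPM (E19 HS) and 246 CPM (E19 HSTS), with *MYF5* in 19 of 80 and 27 of 113 cells and *CDH15*, a cadherin of muscle precursors, in 40 and 53. The E16 HS skeletal gate was not borne out by its markers. Only *PAX3* and *CDH15* of the 8 had UMIs there, 9 in all or 62.5 CPM against 19.2 CPM over all kept E16 HS cells, and *ACTC1* was found in 2 of its 14 cells. *MYOD1* and *MYOG* had no UMI in any kept E16 HS cell, nor *MYOD1* in any of E19 HS. It is called only by its rule below.

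The E19 HS cardiac gate also stood apart in quality. There, 47 of 106 cells (44.3%, 34.7 to 54.3) had under 0.5% mitochondrial UMIs, against 3 of 19 in E16 HS, 6 of 73 in E19 HSTS and 8.08% of all kept E19 HS cells. Those 47 cells had a median of 2430 UMIs and 663 genes, against 10741 UMIs and 2032 genes in the other cells of that gate. Without such cells the cardiac shares were 0.164%, 0.604% and 0.753%, so the order of the breeds turned while E16 stayed lowest. Results that rest on the cardiac gate are given with and without them where they moved, a choice made after seeing the data. At the other end, 47 of 73 cardiac cells of E19 HSTS (64.4%) had 5% or more mitochondrial UMIs, against 32 of 106 in E19 HS and 7 of 19 in E16 HS.

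Between E16 and E19 the muscle sarcomere genes of HS embryos were mostly higher, across every contractile role but tropomyosin. Over all kept cells, 42 members had enough counts, and 19 of them were at least 2-fold higher at E19, where 6.38% of the 12580 genes measured were. Another 4 were at least 2-fold lower, where 6.96% of all genes were. Since the filter takes both sums together, some of the 19 reached it through the E19 sum, as *MYL1b* and *MYOZ2* below. With at least 1 UMI 25 were higher and 6 lower, and with at least 200 UMIs 16 and 2. The median member ratio was 1.74, beside 0.854 over all genes. The plot of CPM by role shows the libraries side by side.

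**Figure D1:**
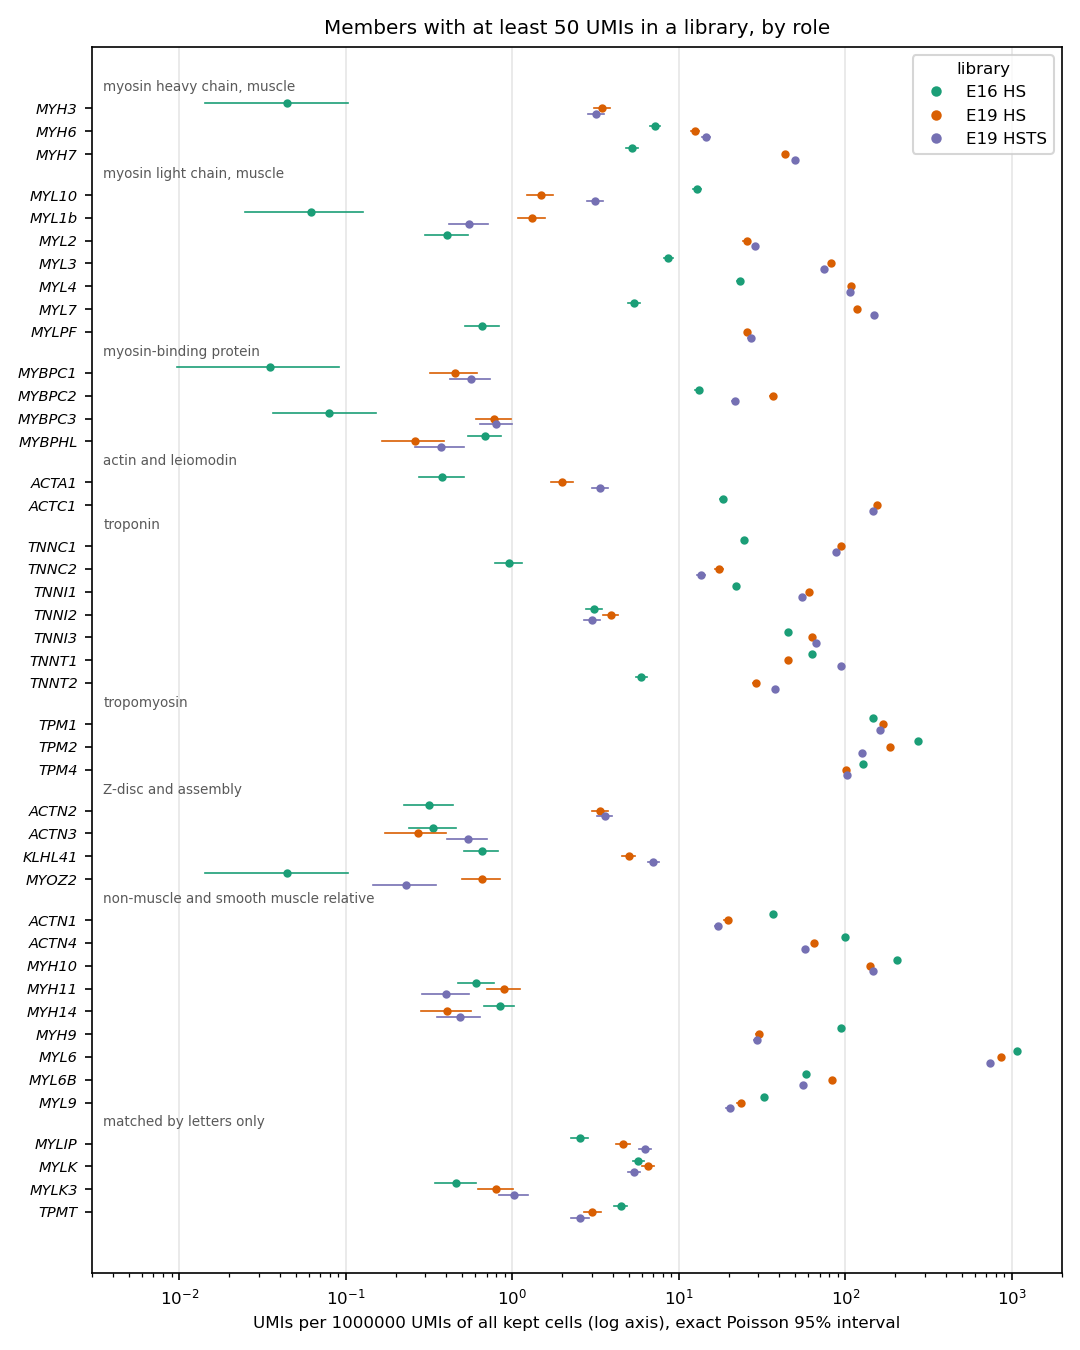
CPM in all kept cells (log axis) of the 43 members with at least 50 UMIs in a library, grouped by role, with 1 point per library for E16 HS, E19 HS and E19 HSTS and exact 95% Poisson intervals as bars. The E16 HS points lie lowest for most muscle genes, as for *MYL2* at 0.406 CPM against 25.5 and 28.8 CPM, while for *MYL10* the E16 HS point is highest at 12.8 CPM.

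The 7 muscle light chains had a median stage ratio of 21.1. *MYL7* stood at 5.37 CPM in E16 HS, 118 CPM in E19 HS and 149 CPM in E19 HSTS, a stage ratio of 21.9 (20.2 to 23.8). *MYL2*, the ventricular regulatory light chain, went from 46 UMIs at E16 to 2261 at E19 in HS, a ratio of 62.7 (46.9 to 85.9), and *MYL3*, the ventricular essential light chain, from 8.64 to 82.4 CPM (9.54, 8.92 to 10.2). Both E19 libraries stood clear of E16 HS for all of these. *MYLPF*, from fast skeletal muscle, was 39.0-fold higher at E19 HS (31.0 to 49.8), and *MYL1b*, an essential light chain symbol of skeletal type, had 7 UMIs at E16 and 116 at E19. *MYL4*, the atrial and embryonic essential light chain, differed less, at 23.4 and 108 CPM (4.61, 4.42 to 4.82). In all, 6 of the 7 muscle light chains were higher and only *MYL10* was lower.

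Among heavy chains, *MYH7*, the slow or beta chain of ventricle and slow muscle, was at 5.24 CPM in E16 HS and 43.5 CPM in E19 HS (8.31, 7.62 to 9.07). *MYH3*, the embryonic skeletal heavy chain, had 5 UMIs at E16 and 307 at E19 in HS (78.3, 33.2 to 243). *MYH6*, the alpha chain that marks the atrium, differed least of the 3, at 7.23 and 12.5 CPM (1.73, 1.58 to 1.9). Near-identical stretches shared by *MYH6* and *MYH7*, by the skeletal heavy chains, and by *ACTC1* and *ACTA1* make the split of reads within each group uncertain.

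The thin filament and the Z-disc followed. *ACTC1*, cardiac alpha actin, was at 18.5, 154 and 146 CPM in E16 HS, E19 HS and E19 HSTS, a stage ratio of 8.31 (7.93 to 8.7), and *ACTA1*, skeletal alpha actin, had a ratio of 5.22 (3.72 to 7.47). Of the 7 troponins, *TNNC2* (18.3), *TNNT2* (4.86), *TNNC1* (3.8) and *TNNI1* (2.72) were higher and none was 2-fold lower. *ACTN2*, the alpha actinin of the Z-disc, was 10.6-fold higher (7.48 to 15.4), *KLHL41* 7.64-fold and *MYOZ2*, a calcineurin-binding Z-disc protein, 14.8-fold on 5 against 58 UMIs. The tropomyosins, which many non-muscle cells also use, had ratios of only 0.683 (*TPM2*) to 1.14 (*TPM1*). Of the myosin-binding proteins *MYBPC3*, the cardiac form, had 9 and 69 UMIs (9.78), *MYBPC2* a ratio of 2.79, and *MYBPHL* was lower at 0.376 (0.225 to 0.606).

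Of the 9 relatives outside the sarcomere with enough counts, 7 lay within 2-fold, 2 were lower and none was higher. *MYH11*, the smooth muscle heavy chain, was at 1.46 (1.04 to 2.05) and *MYL6B* at 1.44 (1.39 to 1.48), both above 1. *MYH9*, the non-muscle myosin IIA heavy chain, was 0.322 of its E16 level (0.309 to 0.336), with 93.8 CPM in E16 HS, 30.3 in E19 HS and 29.5 in E19 HSTS. *MYH14* was the other one past 2-fold, at 0.483 (0.32 to 0.716). The 4 letter-only matches with enough counts, *MYLK*, *MYLK3*, *MYLIP* and *TPMT*, had ratios from 0.677 to 1.82. Of these, *MYLK* and *MYLK3* encode kinases of myosin light chains, while *MYLIP* encodes a ubiquitin ligase and *TPMT* a methyltransferase of drug metabolism.

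Other muscle genes came from lists of sarcomere-associated, calcium-handling and energy genes. Of 16 sarcomere-associated genes with enough counts, 9 were higher and 1 was lower, with *CSRP3*, a Z-disc LIM protein, at 15.9 (11.3 to 23.0), *HSPB7* at 5.1 and *MYOM1*, an M-band protein, at 5.08. The lower one was *NEBL*, nebulette, at 0.492. *COX6A2*, the heart and muscle subunit of cytochrome oxidase, was at 22.9 (16.9 to 31.6). It was 1 of only 2 higher among 7 genes of the calcium and energy list, whose median of 0.86 was close to that of all genes, with *ATP2A2* at 0.717 and *RYR2* at 0.781. The cardiac transcription factors *GATA4*, *TBX20* and *HAND2* were at 0.264, 0.288 and 0.352. These factors also work outside the heart, *GATA4* in endoderm and *HAND2* in limb and neural crest.

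Where in the embryo the UMIs lay differed between the stages. In E19 HS, the cardiac gate, 0.997% of the cells, held 95.6% of all *MYH6* UMIs, 94.6% of *MYL3*, 94.2% of *MYBPC3* and 91% of *MYH7*. The skeletal gate, 0.753% of the cells, held 94% of *MYL1b* and 92.8% of *MYH3*. In E19 HSTS these shares were 85.9% (*MYH6*), 85.3% (*MYL3*), 88.8% (*MYBPC3*), 82.2% (*MYH7*), 81.8% (*MYL1b*) and 91.5% (*MYH3*). UMIs of the 7 E19 HSTS cells that passed both gates count to neither gate here. Cells of neither gate that were not erythroid held 4.22%, 2.78%, 0% and 6.69% of *MYH6*, *MYL3*, *MYBPC3* and *MYH7* in E19 HSTS. In E19 HS such cells held 3.96%, 4.12%, 5.8% and 8.26%. The lower cardiac shares of E19 HSTS thus do not show more of these genes in other cells. The gate genes lay inside by rule, with 97.6% of *MYL7* in the cardiac gate and 96.6% of *MYLPF* in the skeletal gate of E19 HS. *TNNC1*, *MYL4*, *MYL2* and *ACTC1* were split between both, with 80.6%, 83.3%, 85.1% and 68.5% in the cardiac gate and 10.3%, 6.49%, 12.9% and 15.2% in the skeletal gate. Other members lay mostly outside the gates: 88.7% of *TPM2*, 96.8% of *TPM4*, 97% of *MYBPC2*, 67.4% of *TNNI3*, 59.6% of *TNNT1* and 50% of *TNNI1* UMIs were in cells of neither gate that were not erythroid.

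**Figure D2:**
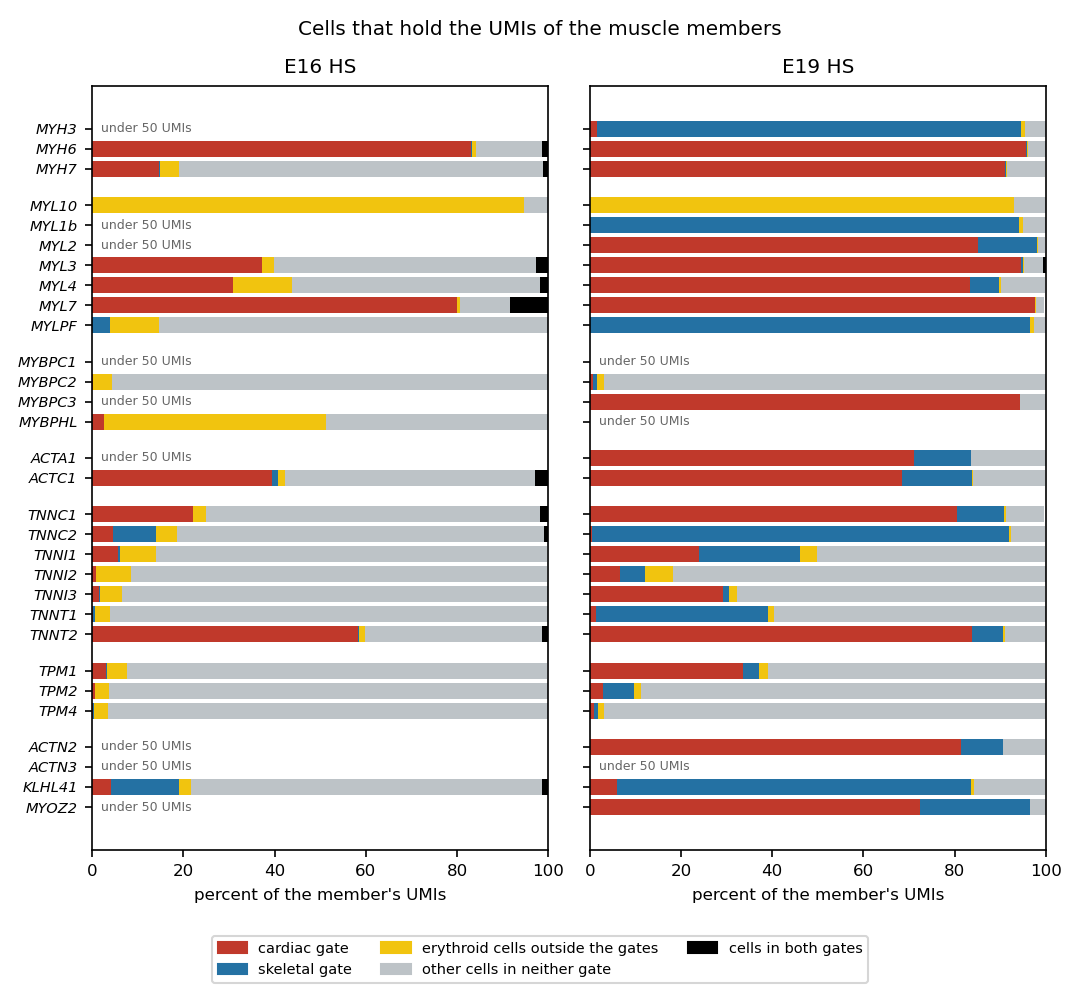
Percent of the UMIs of each muscle member (horizontal stacked bars, 1 panel each for E16 HS and E19 HS) that fell in the cardiac gate, the skeletal gate, erythroid cells, other cells and cells in both gates. For *MYH7* the cardiac part is 14.7% at E16 and 91% at E19, while *TPM2* lies outside the gates at both stages, and members with under 50 UMIs in a library are marked as such.

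At E16 far less of the same genes was inside the cardiac gate. It held 83.1% of *MYH6* and 79.9% of *MYL7* UMIs, but 37.2% of *MYL3*, 30.8% of *MYL4*, 22.1% of *TNNC1* and 14.7% of *MYH7*. Even of the gate gene *TNNT2* it held only 58.3%, and the part of the cutoffs in these shares was not tested. For *MYH7*, 79.9% of the E16 UMIs were in other cells, spread over 420 cells in all with 593 UMIs. In cells of neither gate, erythroid cells left out, the stage ratio of *MYH7* was 0.917 (0.793 to 1.06), so the 8.31-fold difference over the whole embryo was not seen there. *TNNC1* was lower at E19 in those cells, at 0.465 (0.426 to 0.507), and *TNNT1*, slow skeletal troponin T, at 0.48 (0.458 to 0.503), while *MYBPC2* (3.02, 2.84 to 3.22) and *ACTC1* (2.56, 2.38 to 2.75) were higher. Over the 36 members with enough counts in those cells, 3 were higher, where 7.06% of 12288 genes were, and 4 were lower, where 5.70% were.

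The share of all RNA given to muscle members also differed. The 36 muscle members other than the gate genes, with relatives and letter-only matches left out, made up 0.0797%, 0.12% and 0.116% of the UMIs of all kept cells in E16 HS, E19 HS and E19 HSTS. Inside the cardiac gate they made up 3.28%, 5.45% and 4.97%, and inside the skeletal gate 0.121%, 1.16% and 1.16%. A cardiac cell held UMIs of a median of 11, 12 and 14 of these 36 members, and of 11, 11 and 12 once every cell was thinned to 3000 UMIs and shallower cells were left out. At equal depth the median number per cardiac cell thus differed by at most 1 between libraries, while the share of UMIs was lowest at E16. In the skeletal gate the medians were 3.5, 7.5 and 7, and 2, 6 and 5 after thinning.

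Cells of the cardiac and skeletal gates of the same E19 embryos differed in nearly every filament part. Cells were compared within a library, so sample preparation was shared. In E19 HS 26 members other than the gate genes had enough counts, 17 were higher in the cardiac gate, where 10.5% of 2501 genes were, and 5 were lower, where 8.48% were. In E19 HSTS, of 24 such members 15 were higher and 4 lower, where 8.34% and 11.3% of 3263 genes were. *MYL1b*, too low in counts in E19 HSTS, was the fifth lower member of E19 HS. The filter takes both sums together, so members high in the cardiac gate could enter more easily. Muscle members other than the gate genes had 46523 (E19 HS) and 46925 (E19 HSTS) UMIs in the cardiac gate. In the skeletal gate they had 8966 and 13844. With at least 1 UMI, 25 members were higher and 9 lower in E19 HSTS. The counts thus do not show how many of all members favoured each gate. The skeletal gate asked for fewer UMIs, and 37 of 80 (E19 HS) and 60 of 113 (E19 HSTS) cells passed it with exactly 2 genes. With stricter gates 15 members were higher and 5 lower in E19 HS, and 13 and 4 in E19 HSTS.

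**Figure D3:**
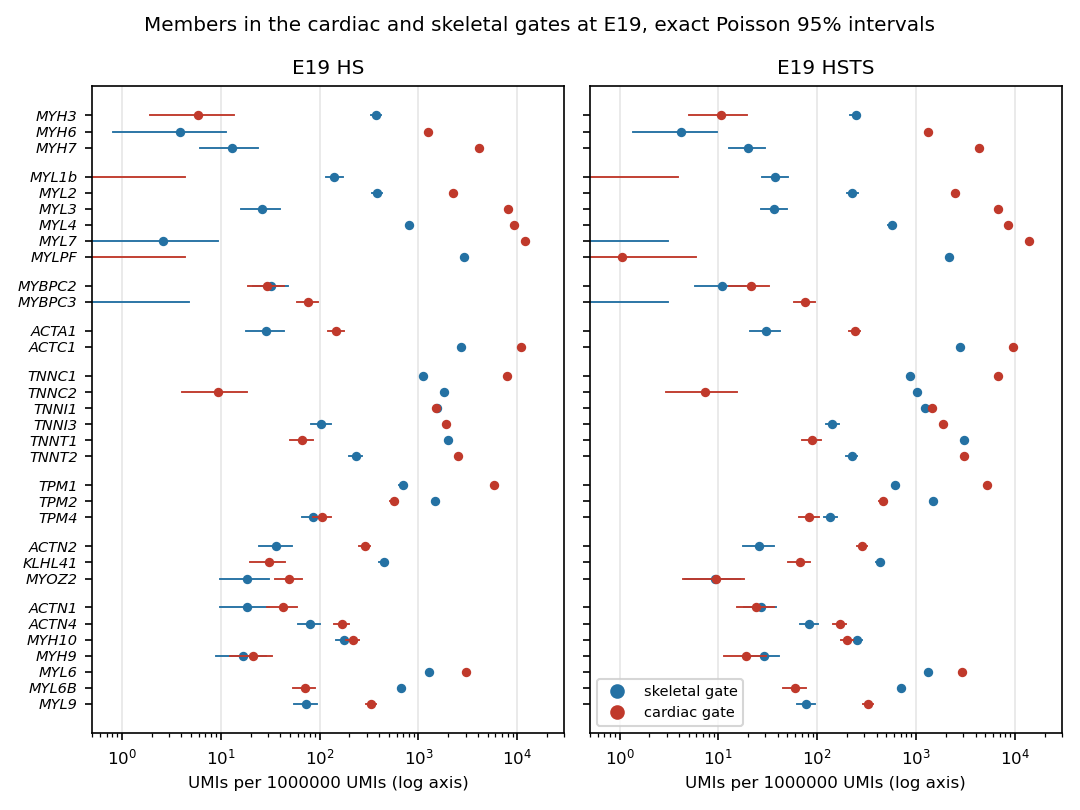
CPM of each member (rows, by role; horizontal log axis) in the skeletal gate in blue and the cardiac gate in red, 1 panel each for E19 HS and E19 HSTS, with exact 95% Poisson intervals as bars and a bar alone where a sum was 0. The red point of *MYH6* stands at 1245 CPM and the blue one at 3.89 CPM in E19 HS, the order is turned for *MYH3* and *TNNT1*, and the points of *TNNI1* overlap or nearly so.

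The cardiac side was led by heavy and light chains. *MYH6* was at 1245 CPM in the cardiac and 3.89 CPM in the skeletal gate of E19 HS and at 1313 and 4.19 CPM in E19 HSTS, ratios of 319.7 (109 to 1553) and 313 (134 to 967). *MYH7* had ratios of 317 (172 to 662) and 215 (145 to 337), and *MYL3* of 312 (202 to 512) and 181 (135 to 249.9). Each of these left only 3 to 44 UMIs in the skeletal gates. *MYBPC3* had 65 and 71 UMIs in the cardiac gates and none in the skeletal gates, which is at least 19.6-fold and at least 29.9-fold higher when 3 counts stand for the zero.

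A second group was present in both and higher in heart. *TNNI3*, cardiac troponin I, was 18.3-fold (14.6 to 23.1) and 13.1-fold (11.2 to 15.5) higher in the cardiac gates of E19 HS and E19 HSTS, and *MYL4* 11.6-fold and 15.1-fold. *TPM1* was 8.38-fold and 8.67-fold higher, *ACTN2* 7.84-fold and 11-fold, *TNNC1*, the troponin C shared by heart and slow muscle, 7.04-fold and 7.9-fold, and *MYL2* 5.95-fold and 10.9-fold. Of the actins, *ACTC1* was 4.06-fold and 3.4-fold higher and *ACTA1* 5.13-fold and 7.93-fold. *ACTC1* still reached 2698 and 2812 CPM in the skeletal gates, where *ACTA1* was at 28.6 and 30.2 CPM.

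*TNNI1*, slow skeletal troponin I, was level between the cardiac and skeletal gates in E19 HS, at 1499 and 1534 CPM (0.977, 0.902 to 1.06). In E19 HSTS it was slightly higher in the cardiac gate, at 1450 and 1232 CPM (1.18, 1.09 to 1.27). In the heart of the embryo this slow form is known to precede *TNNI3*.

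The skeletal side was led by *MYH3* and *TNNT1*. *MYH3* stood at 369.9 CPM in the skeletal and 5.86 CPM in the cardiac gate of E19 HS (cardiac over skeletal 0.0158, 0.0051 to 0.0374) and at 245 and 10.6 CPM in E19 HSTS (0.0432, 0.0205 to 0.0807). It came from few cells, 20 of 80 and 24 of 113. *TNNT1* was at 1968 and 66.8 CPM in E19 HS and at 3035 and 87.8 CPM in E19 HSTS, ratios of 0.034 and 0.0289. *MYL6B*, a light chain of slow and embryonic muscle and of non-muscle cells, had ratios of 0.105 and 0.0844, and *TPM2*, beta tropomyosin, of 0.383 and 0.313. *MYBPC1*, the slow skeletal myosin-binding protein, had 38 and 49 UMIs in the skeletal gates and none in the cardiac gates, too few for the count of 50.

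Among the other muscle genes, *NEBL* and *NEB* parted the gates: nebulette, the heart form, was 150.4-fold and 658-fold higher in the cardiac gates of E19 HS and E19 HSTS, and nebulin, the skeletal form, had 0 and 2 UMIs there against 211 and 263. *RYR2* was at least 38.8-fold and 207-fold higher, *ANKRD1*, a stress-responsive titin partner, 176-fold and 109.7-fold, and *CSRP3* 54.8-fold and 69.7-fold. Of the sarcomere-associated genes with enough counts, 8 of 10 and 10 of 12 were higher in the cardiac gate, under the same filter on both sums together. *FABP3*, a fatty acid carrier, went the other way with ratios of 0.26 and 0.205. The smooth muscle genes *ACTA2*, *CNN1* and *TAGLN*, which the early heart tube also uses, were 136-fold, 183-fold and 8.66-fold higher in the cardiac gate of E19 HS. The smooth muscle list summed to 2402 and 2000 CPM in the cardiac gates of E19 HS and E19 HSTS and to 67.5 and 61.2 CPM in the skeletal gates, and its part in the ratios was not tested.

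At E16 the comparison held 19 against 14 cells. All 12 members with enough counts were higher in the cardiac gate, where 8.42% of 796 genes were and 4.02% were lower. That direction was largely set by the filter, which asks for enough UMIs in both sums together. Muscle members other than the gate genes had 175 UMIs in the skeletal gate and 4424 in the cardiac gate. Members low in the cardiac gate could thus hardly enter, and the count does not show that no member was lower there. *TPM2*, lower in the cardiac gate at E19, was higher there at E16, with 1251 against 257 CPM (4.87, 3.4 to 7.16). The skeletal gate of E16 held 0 UMIs of *MYH3*, 3 of *MYLPF*, 10 of *TNNC2*, 11 of *KLHL41* and 30 of *TNNT1*, the last at 208 CPM against 1968 and 3035 CPM in the E19 gates. These ratios set the cardiac cells against cells not shown to be muscle.

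Within the cardiac gate, *MYH7*, *MYL2*, *MYL3* and *TNNI3* stood higher in E19 HS than in E16 HS, and *MYH6* and *MYH10* stood lower. Of 21 members with enough counts, gate genes left out, 7 were higher at E19, where 6.75% of 1792 genes were, and 4 were lower, where 12.7% were. The 7 were *MYL2*, *MYH7*, *TNNI3*, *MYL3*, *MYL6B*, *ACTA1* and *ACTN2*, and the 4 were *MYH6*, *MYH10*, *TPM4* and *TPM2*. The E16 sum held 19 cells, and *MYL6B* rested on 4 against 60 UMIs, with an interval that holds 1 (2.37, 0.881 to 9.0). Scaling by trimmed mean of M-values (TMM) moved all ratios of this comparison up by 0.4 on the log2 scale, 1.32-fold, and gave 11 higher and 2 lower. *ACTC1*, *TNNC1*, *MYL4* and *TPM1* were then also past 2-fold, and *TPM2* and *TPM4* no longer were.

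**Figure D4:**
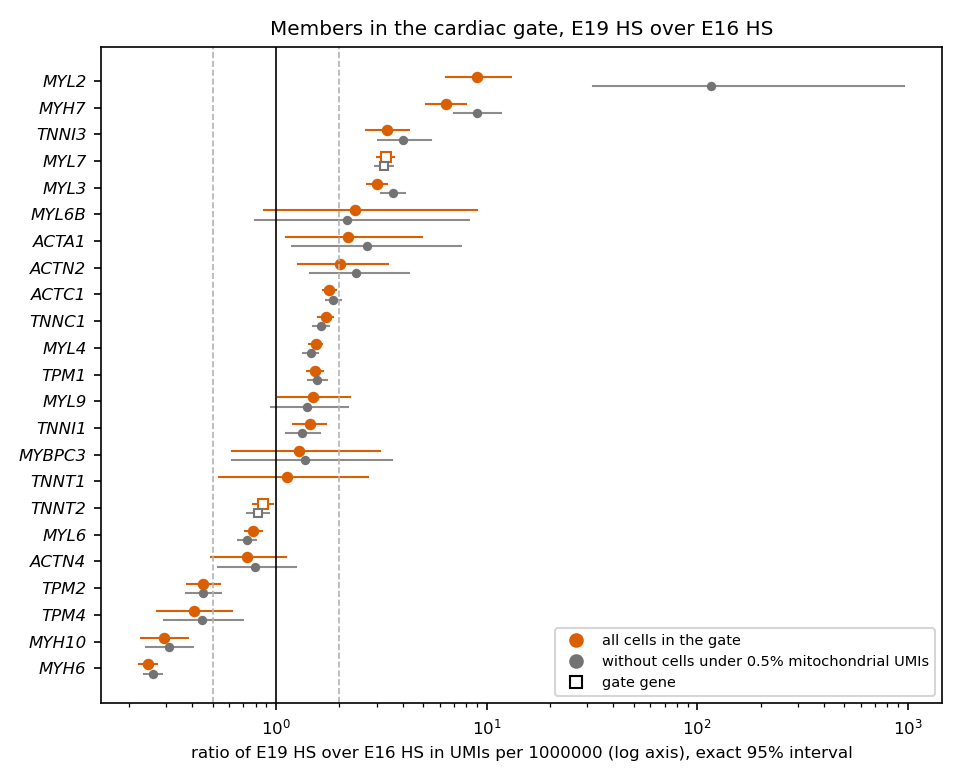
Ratio of CPM, E19 HS over E16 HS, in the cardiac gate for each member with enough counts (log axis), with all cells in orange, without cells under 0.5% mitochondrial UMIs in grey, and the gate genes as open squares. Bars are exact 95% intervals, and *MYL2* moves from 8.96 to 116 while *MYH6* stays at 0.247 and 0.261.

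The heavy chains went in opposite directions. *MYH6* was at 5035 CPM in E16 HS, 1245 CPM in E19 HS and 1313 CPM in E19 HSTS, a stage ratio of 0.247 (0.224 to 0.273). *MYH7* was at 644, 4119 and 4334 CPM, a ratio of 6.39 (5.17 to 8.0), and 8.99 (7.01 to 11.7) without the cells low in mitochondrial UMIs. Pooled over the cells of the gate, *MYH7* thus made up 11.3% of *MYH6* and *MYH7* UMIs at E16 and 76.8% and 76.7% in the 2 E19 libraries. Both E19 libraries lay on the same side of E16 for both genes.

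The ventricular light chains and cardiac troponin I were higher at E19. *MYL3* was at 2695 CPM in E16 HS, 8107 CPM in E19 HS and 6689 CPM in E19 HSTS, a stage ratio of 3.01 (2.71 to 3.35). *TNNI3* was at 563, 1895 and 1873 CPM (3.37, 2.67 to 4.3), whereas its slow partner *TNNI1* was at 1037, 1499 and 1450 CPM (1.45, 1.21 to 1.73). *MYL2* was at 252, 2255 and 2482 CPM, a ratio of 8.96 (6.39 to 13.0). The *MYL2* ratio was the one most open to the cells counted: all 34 E16 UMIs lay in 3 of 19 cells, with 21, 11 and 2 UMIs, and the first 2 of these cells had under 0.5% mitochondrial UMIs. Without such cells the ratio was 116 (32 to 958), from 2 E16 UMIs. At E19, *MYL2* was detected in 82 of 106 cells in E19 HS and in 51 of 73 in E19 HSTS.

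The thin filament moved less. *ACTC1* was at 6116, 10943 and 9553 CPM in E16 HS, E19 HS and E19 HSTS (stage ratio 1.79, 1.67 to 1.92), *TNNC1* had a ratio of 1.72, *TPM1* of 1.53 and *MYL4* of 1.55. *ACTN2* had 19 and 243 UMIs (2.02, 1.27 to 3.42) and *ACTA1* 9 and 125 (2.2, 1.12 to 4.92). *TPM2*, at 1251 against 565 CPM (0.451), and *TPM4*, at 259 against 105 CPM (0.407), were lower, as was *MYH10*, non-muscle myosin IIB, at 733 against 216 CPM (0.294, 0.229 to 0.38). *MYL6*, the general light chain, was at 0.779 and moved to the other side of 1 under TMM scaling. Of the gate genes, *MYL7* was at 3599 and 11934 CPM and *TNNT2* at 2910 and 2519 CPM, given as description only.

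Markers of other cells moved with these values. The 3 mesenchyme markers summed to 1185 CPM in the E16 HS cardiac gate and to 105 and 117 CPM in E19 HS and E19 HSTS, with none at 0 in any of them. Over all kept cells the same list was at 1240, 372 and 321 CPM, so the E16 HS gate stood near the level of its library. *COL3A1* alone was at 748 and 62.1 CPM in the cardiac gates of HS. The epithelial list stood at 1170, 540.3 and 326 CPM, all of it *KRT18* at E16, where *EPCAM* and *CLDN7* were at 0. *KRT18* is also made by the early heart. The part of these in the ratios was not tested. Of the sarcomere-associated list, 4 of 9 were higher at E19 and none was lower, led by *CRYAB*, a small heat shock protein of the Z-disc, at 6.93 (3.93 to 13.5), *HSPB7* at 4.04 and *SMPX* at 2.8. *COX6A2* was at 4.72 (3.12 to 7.5), and *ATP2A2*, the calcium pump of the sarcoplasmic reticulum, at 0.339 (0.225 to 0.518).

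Cell by cell, 1 heavy chain mostly prevailed. Among cardiac cells with at least 5 UMIs of *MYH6* and *MYH7* together, a cutoff set after seeing the data, 41 of 66 E19 HS cells had more than 80% *MYH7* (62.1%, 49.3 to 73.8), 13 had less than 20%, and 12 lay between. In E19 HSTS the numbers were 39, 21 and 8 of 68. In E16 HS 13 of 17 cells had less than 20% *MYH7* (76.5%, 50.1 to 93.2), 2 had more than 80% and 2 lay between. Most cells of every library were therefore at either end. Under the filter of at least 500 genes and under 5% mitochondrial UMIs the pooled *MYH7* part was 64.7% in E19 HS, 65.6% in E19 HSTS and 7.46% in E16 HS. Of the 21 E19 HSTS cells left there, 11 had less than 20% *MYH7* and 10 had more than 80%. The *MYH7* end thus no longer held most cells of that library. In E19 HS 23 of 36 cells still had more than 80%, and in E16 HS 9 of 10 had less than 20%.

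**Figure D5:**
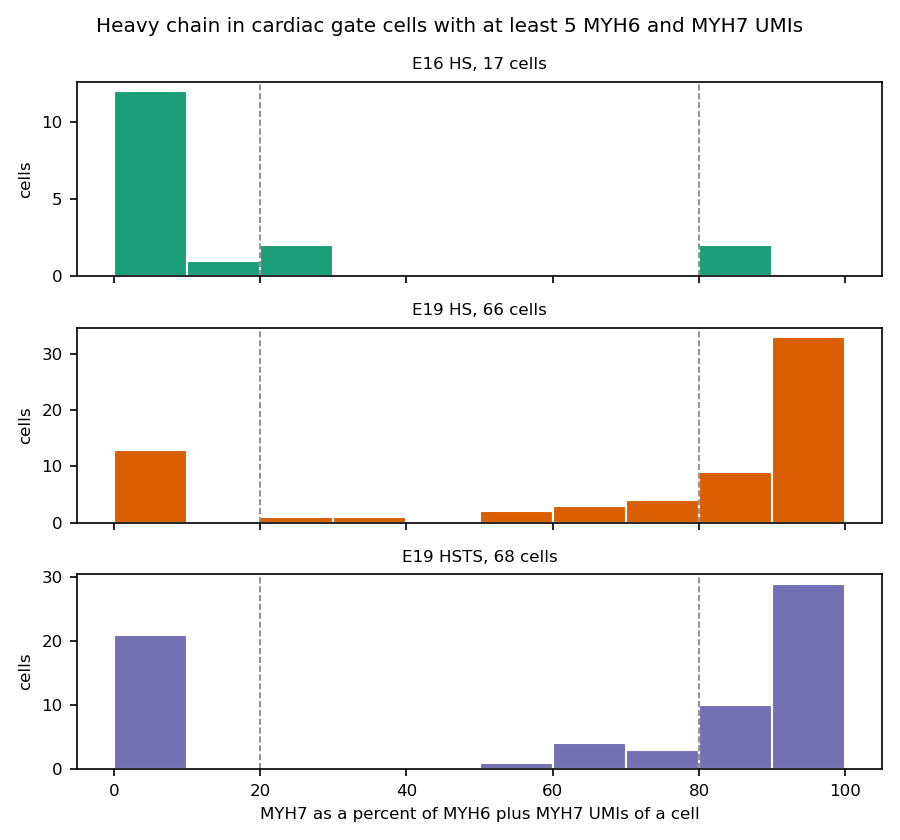
Number of cardiac gate cells (vertical axis) by the percent of *MYH7* among *MYH6* and *MYH7* UMIs (horizontal axis), 1 panel per library, for cells with at least 5 such UMIs, with dashed lines at 20 and 80%. The E16 HS cells pile up at the *MYH6* end, 13 of 17 below 20%, and the E19 cells mostly at the *MYH7* end, 41 of 66 in E19 HS and 39 of 68 in E19 HSTS above 80%.

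Other members went with the heavy chain at E19. In cells above 80% *MYH7*, *MYL2* was at 3434 CPM in E19 HS and 3322 CPM in E19 HSTS, and in cells below 20% at 26.2 and 16.5 CPM, ratios of 131 (51.2 to 482) and 202 (78.6 to 741). *TNNI3* was 3.07-fold and 4.71-fold higher in the *MYH7* cells, and *MYL3* 1.74-fold and 3.82-fold. *ACTA1* had ratios of 1.68 (0.966 to 3.09), an interval that holds 1, and 4.35 (2.6 to 7.79). *MYL4* was lower in them, at 0.814 and 0.704, and *TPM2* at 0.492 and 0.647. *MYL7* was at 0.831 (0.792 to 0.872) and 0.987 (0.949 to 1.03), lower in E19 HS and with an interval that holds 1 in E19 HSTS. The cells were divided by 2 members, not by the genes compared, but they came from 1 embryo each and are no replicates of a state.

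Leaving out cells by doublet score, the top 8% of each library, removed more of the *MYH6* cells. Cells below 20% *MYH7* then numbered 12 in E16 HS, 5 in E19 HS and 7 in E19 HSTS, and cells above 80% numbered 2, 41 and 36. Their part in the ratios between these cells was not tested. The doublet caller marked 0.0847% of the E19 HS cells, too few for its calls to be used there, and how well its scores rank cells of that library was not tested.

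Between the breeds at E19, 37 of 43 members lay within 2-fold over all kept cells. In these sums, 3 of 43 members were at least 2-fold higher in E19 HSTS than in E19 HS, where 1.53% of 12439 genes were, and 3 were lower, where 2.28% were. The intervals of 13 ratios lay wholly above 1 and those of 18 wholly below. Values of the breeds are given with E19 HSTS first. The higher ones were *TNNT1*, *MYL10* and *ACTN3* and the lower ones *MYOZ2*, *MYL1b* and *MYH11*. The median member ratio was 0.984, and the heart genes *MYH6*, *MYH7*, *MYL2* and *MYL4* had ratios of 1.16, 1.15, 1.13 and 0.984. These sums include erythroid cells, which held 45.8% of E19 HSTS and 29% of E19 HS UMIs. For a gene with few erythroid UMIs, leaving those cells out raises the breed ratio. Such ratios near 1 thus do not show that the breeds were level. Without erythroid cells, 3 members were at least 2-fold higher and 1 lower in E19 HSTS. *MYL7*, a gate gene, was at 149 and 118 CPM (1.27), 1.64 with erythroid cells left out and 1.75 without cells under 0.5% mitochondrial UMIs. *ACTA1*, at 1.7 in the whole, passed 2-fold under both of these, at 2.24 and 2.08.

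Within the cardiac gate 23 members had enough counts. None was 2-fold higher in E19 HSTS, where 2.20% of 2686 genes were, and 1 was lower, where 1.19% were. That was *MYOZ2*, with 9 UMIs against 42 (0.193, 0.0828 to 0.403). It no longer had the 50 UMIs needed when stricter gates were used or when cells with high doublet scores or cells under 0.5% mitochondrial UMIs were left out. Of its 42 UMIs in E19 HS, 19 lay in cells of the last kind. *ACTA1* was at 239 and 147 CPM (1.63, 1.31 to 2.05), and *MYL3* at 6689 and 8107 CPM (0.825, 0.797 to 0.854). The 22 ratios other than that of *MYOZ2* lay between 0.577 and 1.63. With cells under 0.5% mitochondrial UMIs left out, *ACTA1* was at 1.81 (1.42 to 2.33) and *MYL3* at 0.924 (0.89 to 0.959). *MYL2* was then at 1.3 (1.22 to 1.39). *KLHL41*, a gene of the skeletal gate and so not counted, had 63 and 26 UMIs (2.19, 1.37 to 3.6). Without cells under 0.5% mitochondrial UMIs, *TNNT1* passed 2-fold at 2.21, and *ACTN1* was the 1 lower member at 0.49 (0.276 to 0.853).

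Within the skeletal gate 21 members had enough counts, none was 2-fold higher in E19 HSTS, where 4.01% of 3046 genes were, and 1 was lower, where 1.05% were. *MYL1b* was that one, with 45 and 109 UMIs (0.267, 0.184 to 0.38). *MYH3* (0.661, 0.56 to 0.781), *MYL2* (0.599, 0.506 to 0.709) and *MYL4* (0.7, 0.626 to 0.781) were also lower with intervals that exclude 1, and *TNNT1* (1.54, 1.45 to 1.64) and *TPM4* (1.58, 1.18 to 2.14) were higher. The cells of the gate that held all 4 gate genes were 29 of 113 in E19 HSTS and 27 of 80 in E19 HS, and the part of this mix in the ratios was not tested.

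*TNNT1* was one of the 3 members higher in E19 HSTS over all kept cells. It stood at 62.7 CPM in E16 HS, 45.5 CPM in E19 HS and 94 CPM in E19 HSTS, a breed ratio of 2.07 (1.99 to 2.15), and 2.67 with erythroid cells left out. The difference was seen in classes of cells that are not muscle, which were formed by pairs of marker genes with at least 1 UMI each. In *SOX2* and *PAX6* cells of the neural tube *TNNT1* was at 113 CPM in E16 HS, 42.4 CPM in E19 HS and 136 CPM in E19 HSTS. In *TWIST1* and *MEOX1* cells, a pair that marks somites, it was at 52.4, 34.5 and 156 CPM, and in *EPCAM* and *KRT18* epithelial cells at 102, 34.1 and 70.4 CPM. E19 HSTS stood above E19 HS in all 7 pairs looked at. *TNNI3*, which lies next to *TNNT1* with no gene between them in the sheep annotation of RefSeq (ARS-UI_Ramb_v3.0), went the same way in those 3 classes, at 95.3 against 71.2, 80 against 41.5 and 86.9 against 69.9 CPM in E19 HSTS and E19 HS. Whether the counting assigned reads of 1 of these neighbours to the other was not tested.

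Several members were also plentiful outside heart and skeletal muscle cells. In *ACTA2* and *TAGLN* cells, which hold smooth muscle, *ACTC1* was at 69.2 CPM in E16 HS, 1215 CPM in E19 HS and 345 CPM in E19 HSTS, from 62, 62 and 40 cells. *TPM2* stood at 952, 2014 and 1217 CPM there, more than in the cardiac gates of E19. In *COL1A2* and *PDGFRA* mesenchyme *TPM2* was at 593, 483 and 389 CPM, and in *KDR* and *PLVAP* endothelial cells at 318, 208 and 142 CPM. In mesenchyme and endothelium E16 HS was thus highest, and in the *ACTA2* and *TAGLN* cells E19 HS was.

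*MYBPC2*, named as the fast skeletal myosin-binding protein, was spread over 1276, 2405 and 1667 cells in E16 HS, E19 HS and E19 HSTS and was not higher in the skeletal gate, with 32.4 and 10.9 CPM there in E19 HS and E19 HSTS and 29.3 and 21.2 CPM in the cardiac gate. Its level was 72.6 CPM in *SOX2* and *PAX6* cells of E19 HS, 57.9 in E19 HSTS and 22.1 in E16 HS. *MYH7* was also found in those neural cells, at 27.9 CPM in E16 HS, 10.7 in E19 HS and 18.9 in E19 HSTS, and in E16 HS 85 of 382 such cells held it. *MYL3* and *TNNC1* were both seen in *APOA2* and *FGG* cells, a pair for extraembryonic endoderm: in E16 HS they were at 171 CPM (137 to 211) and 95.5 CPM there, and in E19 HS at 14.4 and 9.58 CPM, while *ACTC1* had 0 UMIs in that class in both. In E16 HS, *MYL3* was detected in 19 of the 53 cells of this class.

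*MYL10*, a regulatory light chain, was in erythroid cells and hardly elsewhere. Erythroid cells held 94.6%, 93.1% and 97.1% of its UMIs in E16 HS, E19 HS and E19 HSTS, and neither muscle gate held any. It was detected in 884 of 2056 (43%, 40.8 to 45.2), 109 of 1414 (7.71%, 6.37 to 9.22) and 250 of 2580 (9.69%, 8.58 to 10.9) erythroid cells, and in 0.841%, 0.0868% and 0.128% of all other cells. Its level in erythroid cells was 9.93-fold higher in E16 HS than in E19 HS (8.25 to 12.1), and 1.4-fold higher in E19 HSTS than in E19 HS (1.13 to 1.75). *MYL10* was singled out after its values were seen. Of *MYBPHL*, another low member, 48.7% of the 78 E16 HS UMIs lay in erythroid cells.

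The 13 members below 50 UMIs in every library are named with their UMIs summed over the 3 libraries. They were the heavy chains *MYH15* (27), *MYH7B* (38), *MYH2* (47), *MYH4* (8), *MYH8* (47) and *MYH13* (5), the leiomodins *LMOD1* (77), *LMOD2* (53) and *LMOD3* (17), and *MYOZ1* (24), *MYOZ3* (1), *MYBPH* (15) and *MYLK2* (16). Fast and neonatal skeletal heavy chains were thus near the floor in all libraries, and at these depths a difference in them could not be seen.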

How the data were processed

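Single-cell 3′ RNA libraries of whole sheep embryos were compared, 1 library each for E16 HS, E19 HS and E19 HSTS. Per the labels and the submitters' processing notes, the authors aligned reads with Cell Ranger 6.1.2 and deposited raw UMI count matrices, not normalised, on the build Ovis_aries_genome_v1.0, and used Seurat 4.1.1. Gene neighbours came from RefSeq names of another build, so no coordinates are given, and 50 of 56 members matched there.

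Cells were filtered as in the study's methods. UMIs were summed over cells of a gate, scaled to 1000000, and given with exact Poisson intervals. Ratios carry exact conditional intervals, shares exact Clopper-Pearson intervals, all at 95% and for counting error only. A sum of 0 was set to 3 counts for a ratio, which is then a bound. Depth per library was 88733467 to 113213654 UMIs in kept cells, and a member with under 50 UMIs in both sums together got no ratio in the counts. Cells were thinned to 3000 UMIs for the number of members per cell and for an alternative of the gate shares. This left out 1317, 1345 and 1106 shallower cells in E16 HS, E19 HS and E19 HSTS. The other numbers of cells with a gene were not thinned and can vary with depth. Doublets were scored with Scrublet in scanpy 1.11.5, which marked 2.17%, 0.0847% and 2.31% of cells, and were not removed. Trimmed mean scaling used edgeR 4.0.16 for factors only. Python 3.11.15, numpy 2.4.6, scipy 1.17.1 and R 4.3.3 were used, and scripts were tested on simulated data.

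Members, gates and gene lists were chosen with earlier results of these data known. Members with at least 50 UMIs could be named, with full values for those of the largest ratio in each role and direction. Chosen after values were seen were the grouping by role, the removal of gate genes from all counts within gates, the *MYH6* and *MYH7* cutoffs, the 7 marker pairs, and the settings without cells under 0.5% mitochondrial UMIs, with a looser cardiac gate and with muscle members only. Alternatives were a stricter filter, stricter gates, other UMI minimums, thinning, other scaling, and leaving out erythroid cells or the highest doublet scores. No test between conditions was made.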

Additional observations from a re-analysis of the deposited data

Results flagged for a closer look

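For 4 members the stage ratio, E19 HS over E16 HS, lay above 1 in the cardiac gate and below 1 in cells of neither gate with erythroid cells left out. It was 3.01 against 0.73 for *MYL3*, 1.72 against 0.465 for *TNNC1*, 1.53 against 0.805 for *TPM1* and 1.49 against 0.669 for *MYL9*. Without cells under 0.5% mitochondrial UMIs the cardiac ratios were 3.58, 1.64, 1.57 and 1.41 in the same order. The interval of *MYL9* then held 1 (0.943 to 2.19). The difference between the cell groups was not tested, as each stage is 1 library.

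Barcodes outside the cell filter also held cells that met a gate. The cardiac gate took 1.47% of those in E19 HSTS (22 of 1496), 1.81% in E19 HS (26 of 1435) and 0.38% in E16 HS (5 of 1316), and the skeletal gate took 0.735% in E19 HSTS (11 cells) and 0.348% in E19 HS (5 cells). A count of 0 would allow up to 0.201%, 0.209% and 0.228% in the same order of libraries. Of the cardiac ones, 13, 12 and 1 had under 1000 UMIs, 6, 3 and 2 over 30000 UMIs, and 3, 12 and 2 over 10% mitochondrial UMIs.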

How the results depend on the processing

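No paired analysis was possible because each group has 1 library. No member past 2-fold turned its direction under any alternative. Of the summary values 34 moved and 129 did not, and of the ratios of single members 361 moved and 1170 did not. The cardiac share was 0.311% in E19 HSTS and 0.711% in E19 HS under the stricter filter, 0.689% in E19 HS after thinning and 0.604% there without cells under 0.5% mitochondrial UMIs. The skeletal share in E16 HS, E19 HS and E19 HSTS was 0.0177%, 0.405% and 0.551% with stricter gates and 0.03%, 0.431% and 0.599% after thinning, and 1.53% in E19 HSTS without erythroid cells. Members lower at E19 in all kept cells numbered 2 without erythroid cells, with at least 200 UMIs or with muscle members only. Members lower in E19 HSTS there numbered 5 under the stricter filter, 1 without erythroid cells and 0 with at least 200 UMIs. In the cardiac gate, 12 were higher at E19 with a looser gate, and 11 higher and 2 lower under TMM scaling. Between breeds in the cardiac gate, 0 were lower with stricter gates or without the highest doublet scores, and 1 was higher without cells under 0.5% mitochondrial UMIs, while in the skeletal gate 1 was higher with stricter gates. Counting every member with at least 1 UMI gave 14 lower by stage in the cardiac gate, 4 higher and 3 lower by breed there, and 1 higher and 6 lower by breed in the skeletal gate. It also gave, for cardiac over skeletal, 21 higher and 6 lower in E16 HS, 10 lower in E19 HS, and 25 higher and 9 lower in E19 HSTS. These added members rest on few UMIs. The cause of the other moves was not tested. The 19 cardiac cells of E16 HS limit all ratios that rest on them.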
